A study of Homo sapiens with 93 samples.

Results

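HLA-DR and HLA-DQ are the classical MHC class II molecules examined here, through 7 genes that encode their chains or close relatives of them: HLA-DRA, HLA-DRB1, HLA-DRB5, HLA-DQA1, HLA-DQB1, HLA-DQA2 and HLA-DQB2. CUT&Tag, in which an antibody directs a transposase to a chromatin mark, was used to map histone H3 trimethylated at lysine 36 (H3K36me3) in 93 lymphoblastoid lines, made by infecting human B cells with Epstein-Barr virus. All 7 were found among the 14000 features of the deposited count table. The genes were chosen by family, after HLA-DRB5 and HLA-DQB1 had been seen to vary most between lines relative to other features of similar count, so their spread is given as a description and calls made on it support nothing. Each line gave 1 library, and all libraries belong to 1 group with no treatment and no control group. Lines had been grown in 20% serum in 4 batches of about 20 to 35 lines, but the labels do not say which line was in which batch. Differences between lines therefore hold differences of the donor, the immortalisation, the culture and the library together.

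MHC class II molecules are pairs of an alpha and a beta chain that carry peptides from the endocytic pathway to the surface of B cells, dendritic cells and macrophages, where CD4 T cells read them. HLA-DRA encodes the DR alpha chain, which varies little between people, and HLA-DRB1 encodes the DR beta chain found on every common haplotype. HLA-DRB5 encodes a further DR beta chain and lies on some inherited haplotypes of the region but not on others. HLA-DQA1 and HLA-DQB1 encode the alpha and beta chains of DQ, while HLA-DQA2 and HLA-DQB2 are related genes with low and restricted expression. H3K36me3 marks the bodies of genes being transcribed and is deposited by a methyltransferase that travels with elongating RNA polymerase II.

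The 7 features stood in consecutive rows of the count table (rows 11759 to 11765), in the order in which RefSeq places the genes along chromosome 6 of GRCh38.p14, the build that the submitters name as hg38. In that annotation HLA-DRA spans chr6:32439887-32445046, HLA-DRB5 chr6:32517353-32530287 and HLA-DRB1 chr6:32578775-32589848. HLA-DQA1 spans chr6:32637406-32655272 and HLA-DQB1 chr6:32659467-32666657. HLA-DQA2 spans chr6:32741391-32747198 and HLA-DQB2 chr6:32756098-32763532. The file pairs no identifier with a symbol, and 0 identifiers of the reference table could be matched to it. Other class II genes, class II regulators, class I genes and the markers of B cells and other cell types, all listed by symbol, were therefore not examined by name. Features in neighbouring rows were examined by identifier or position only, and the lymphoblastoid label was not checked against markers.

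Promoter windows from RefSeq (GRCh38.p14, 300 bases around the annotated start) were available for 6 of the 7 genes. Those of the 4 genes with the greatest spread between lines are printed to show how alike the DR beta genes are, and where letters of class II promoter boxes match. Every match is in capitals whatever its position, so a match need not be a promoter box. Capitals mark matches to the core of the X box, whose longer runs of capitals show the letters matched, and to the Y box, searched as ATTGG or its reverse CCAAT. Both strands were searched, the letters of the X box core were chosen after the windows had been read, and no matches of the 2 boxes overlap. The X box is bound by the RFX complex and the Y box by NF-Y, on which the class II transactivator CIITA assembles.

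HLA-DRB1, chr6:32589799-32590098, minus strand: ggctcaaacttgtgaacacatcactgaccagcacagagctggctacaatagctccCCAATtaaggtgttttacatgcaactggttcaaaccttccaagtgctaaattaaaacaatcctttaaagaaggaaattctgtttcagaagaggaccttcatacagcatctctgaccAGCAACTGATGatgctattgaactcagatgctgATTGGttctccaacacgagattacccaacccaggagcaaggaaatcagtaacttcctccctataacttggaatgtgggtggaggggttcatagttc
HLA-DRB5, chr6:32530238-32530537, minus strand: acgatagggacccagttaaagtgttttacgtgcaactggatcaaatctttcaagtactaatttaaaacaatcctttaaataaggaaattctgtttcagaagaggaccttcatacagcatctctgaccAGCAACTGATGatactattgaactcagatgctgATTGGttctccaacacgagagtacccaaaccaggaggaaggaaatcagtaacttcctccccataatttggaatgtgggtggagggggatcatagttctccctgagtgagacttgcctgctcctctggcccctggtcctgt
HLA-DQA1, chr6:32637156-32637455, plus strand: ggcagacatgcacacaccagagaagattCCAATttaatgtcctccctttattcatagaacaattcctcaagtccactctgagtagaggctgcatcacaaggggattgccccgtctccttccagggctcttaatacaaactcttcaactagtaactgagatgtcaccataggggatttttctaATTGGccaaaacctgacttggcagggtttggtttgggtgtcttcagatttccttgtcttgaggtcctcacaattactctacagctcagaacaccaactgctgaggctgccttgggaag
HLA-DQB1, chr6:32666608-32666907, minus strand: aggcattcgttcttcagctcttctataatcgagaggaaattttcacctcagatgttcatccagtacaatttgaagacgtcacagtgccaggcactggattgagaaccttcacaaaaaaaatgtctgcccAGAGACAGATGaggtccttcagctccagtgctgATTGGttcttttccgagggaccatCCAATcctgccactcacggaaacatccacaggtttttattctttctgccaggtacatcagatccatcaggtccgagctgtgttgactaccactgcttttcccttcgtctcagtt

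The HLA-DRB1 and HLA-DRB5 windows, whose annotated starts are offset from each other, were identical at 236 of 257 aligned positions (91.8%) with a longest shared run of 60 bases. The HLA-DQA1 window was identical to that of HLA-DQA2 at 85.7% of aligned positions, and the HLA-DQB1 window to that of HLA-DQB2 at 84%. A Y box match was present in all 6 windows, against 34.6% of 35116 promoter windows of the same length. The X box core matched in HLA-DRB1, HLA-DRB5 and HLA-DQB1, against 0.817% of windows. Its letters were chosen after these windows had been read, so nothing is read from that count. A window without a match may hold an X box with other letters. The matched letters were AGCAACTGATG in both DR beta windows and AGAGACAGATG in HLA-DQB1, each followed by a Y box. These matches describe letters and not binding. Because the gene pairs are related in sequence, reads that fit both members of a pair equally well could have been given to either, and the sources used here do not say how such reads were counted. The values of HLA-DRB1 and HLA-DRB5, and of each DQ gene and its relative, are uncertain to that extent. Whether reads from different alleles of 1 gene were placed equally well was not tested, and levels are uncertain in that respect too.

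Library totals ran from 2842955 to 24325746 counts, with a median of 14883653. Levels are given in CPM, the count scaled to a common library total after TMM adjustment. With 1 library per line, the spread between lines includes any spread between preparations of 1 line. A level over a population of cells does not tell fewer marked cells from less mark per cell.

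HLA-DRA (ENSG00000204287.14), the shared partner of all DR beta chains, was the most evenly marked of the classical genes. Its level was 12.8 CPM in the lowest line, 30.8 in the median line and 50.9 in the highest, from counts of 75 to 1040. No gap with at least 6 lines on each side exceeded 0.083 on the log2 scale, and the line at the 90th percentile stood 2.15-fold above that at the 10th. On the log2 scale the level was 4.89 ± 0.44 (SD, n = 93). It was higher where the dynamic range of the library was larger, dynamic range being the difference in median log2 CPM between the fifth of features with the highest and the fifth with the lowest mean level (r = 0.596, rho = 0.632, n = 93; r = 0.587 without the 2 libraries farthest from the median). The part of this library property in the spread of HLA-DRA was not tested.

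HLA-DRB5 (ENSG00000198502.6) differed from the other 6 genes in that its lines fell into 2 separate sets. The level was 0.340 CPM in the lowest line, 1.96 in the median line and 60.9 in the highest. Between 4.12 and 16.5 CPM there was no line: 68 lines lay below, with 2 to 61 counts each, and 25 lay above, with 92 to 661 counts. The empty interval measured 1.96 on the log2 CPM scale. Whether the gene is present in the genome of a line was not tested, and no sequence of any line was examined.

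Among gaps that left at least 6 lines on each side, a limit chosen after the values had been seen and used for every gap given here, that of HLA-DRB5 was the widest of 13915 features. Such a gap of over 1 log2 occurred in 3 of 13915 features (0.0216%), of which 1 was HLA-DRB5. The other two had 6 and 8 lines on their smaller side. The median feature had a widest gap of 0.07 log2, and 99% of features were under 0.28. Of the 25 lines above the gap, 14 were among the 46 libraries with smaller totals and 11 among the 47 with larger ones. Library totals ran from 4544327 to 21211030 above the gap and from 2842955 to 24325746 below it, so the depths of the sets overlapped. In the lines below it, 14 had under 10 counts, and 13 of these were shallower libraries, so differences among the lowest lines are limited by counting.

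HLA-DRB1 (ENSG00000196126.11), the main DR beta gene, ranged widely without an empty interval of that size. The level was 1.52 CPM in the lowest line, 7.35 in the median line and 51.04 in the highest, from counts of 8 to 688. The upper part of the range was long. The upper quartile was 15.9 CPM, and the 90th percentile was 7.62-fold above the 10th. The widest gap with at least 6 lines on each side, of 0.28 log2, lay between 16.4 and 19.9 CPM, with 72 lines below and 21 above. The lowest line, at 1.52 CPM, stood farther from the next, at 2.71 CPM. The DR beta gene carried on all common haplotypes thus spanned a wider range than its alpha partner in the same cells. That range was not separate from the sets of HLA-DRB5, since all 21 lines above the widest HLA-DRB1 gap also lay above the HLA-DRB5 gap. No line below the HLA-DRB5 gap exceeded 16.4 CPM of HLA-DRB1.

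HLA-DQA1 (ENSG00000196735.13), the DQ alpha gene, also had a set of low lines. Its level was 2.74 CPM in the lowest line, 29.7 in the median line and 85.3 in the highest. The widest gap, between 8.87 and 12.5 CPM (0.49 log2), left 20 lines below and 73 above. HLA-DQB1 (ENSG00000179344.16), the DQ beta gene, was at 0.967 CPM in the lowest line, 14.5 in the median line and 45.8 in the highest. The widest gap of HLA-DQB1, between 2.51 and 3.24 CPM (0.35 log2), left 19 lines below and 74 above. It was narrower than that of HLA-DQA1 but above the 0.28 log2 under which 99% of features lay. Most of these 19 lines were also below the gap of HLA-DQA1. The 90th percentile stood 10.6-fold above the 10th for HLA-DQA1 and 13.3-fold for HLA-DQB1.

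HLA-DQA2 (ENSG00000237541.4) and HLA-DQB2 (ENSG00000232629.9), the relatives of the DQ genes, were at no more than 6.14 CPM in any line. HLA-DQA2 was at 0.436 CPM in the lowest line, 2.40 in the median line and 5.98 in the highest, from 4 to 138 counts. HLA-DQB2 was at 1.10, 3.61 and 6.14 CPM, from 5 to 106 counts. Neither had a gap above 0.116 log2 with at least 6 lines on each side, and both had narrow ranges, with 90th over 10th percentiles of 2.57-fold and 2.33-fold. Counting error alone would account for 29% of the variance of CPM between lines in HLA-DQA2 and 29.9% in HLA-DQB2, against 0.504% to 4.15% in the other 5 genes. Like HLA-DRA, HLA-DQB2 moved with the dynamic range of the library, but in the other direction (r = -0.534, rho = -0.548, n = 93; r = -0.461 without 2 libraries). For HLA-DRB1, HLA-DQA1, HLA-DQB1 and HLA-DQA2 this r lay between -0.105 and 0.104, and with log2 library total r lay between -0.261 and 0.0756 over the 6 genes other than HLA-DRB5.

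**Figure D1:**
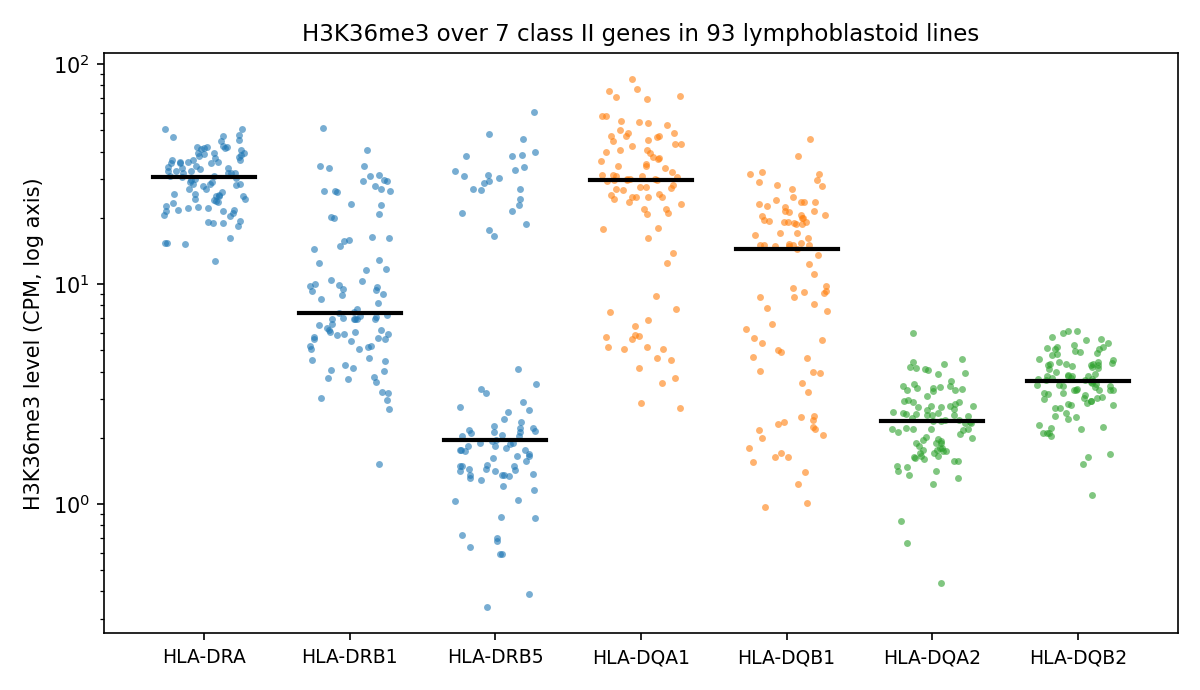
H3K36me3 level (CPM, log axis) of each gene; each point is 1 of 93 lines and the black bar is the median, with DR genes in blue, HLA-DQA1 and HLA-DQB1 in orange and their relatives in green. HLA-DRB5 has no line between 4.12 and 16.5 CPM, while HLA-DRA runs from 12.8 to 50.9 with no gap of that size.

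Levels of different genes were set side by side per kilobase of RefSeq gene span, since the sources used here do not say which interval was counted, and it may differ from that span. HLA-DRA had the highest median, 5.97 CPM per kilobase, followed by HLA-DQB1 (2.01), HLA-DQA1 (1.66), HLA-DRB1 (0.664), HLA-DQB2 (0.485), HLA-DQA2 (0.412) and HLA-DRB5 (0.151). HLA-DRA was above each of the other 6 genes in 93 of 93 lines. No other step in this order held in every line. HLA-DQB1 was above HLA-DQA1 in 49 of 93 lines, so the DQ chains were not ordered beyond their spread. HLA-DQA1 was above HLA-DRB1 in 63 lines, HLA-DRB1 above HLA-DQB2 in 69, HLA-DQB2 above HLA-DQA2 in 63 and HLA-DQA2 above HLA-DRB5 in 65. The median of HLA-DRB5 falls within its lower set of lines, and its highest line reached 4.71 CPM per kilobase, close to the highest lines of HLA-DRB1 (4.61) and HLA-DQA1 (4.77).

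The spread between lines was also expressed relative to that of features with a similar count, as the log2 ratio of a feature's own dispersion to the trended dispersion. These values, and the calls made from them, are part of what chose the genes and are given as a description. The ratio was 5.41 for HLA-DRB5, 4.38 for HLA-DQB1, 4.27 for HLA-DQA1 and 3.89 for HLA-DRB1, which ranked 1, 2, 3 and 9 among 13915 features. The 4 polymorphic chain genes thus stood near the top of the whole table. HLA-DQA2 (1.22, rank 1125) and HLA-DRA (0.98, rank 1491) stood above the trend by far less, and HLA-DQB2 (-0.37, rank 6047) lay below it. HLA-DQB2 was above the trend at 0.23 with 10 principal components removed and at 0.10 with no covariate removed. With edgeR's goodness-of-fit test at an adjusted p of 0.05, 6 of the 7 were called more variable than the trend, against 18.4% of all features. By DESeq2's stricter dispersion outliers the number was 4 of 7, namely HLA-DRB1, HLA-DRB5, HLA-DQA1 and HLA-DQB1, against 1.83% of all features. Nothing is read from these counts, since the spread chose the genes.

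The large excess spread of HLA-DRB5, HLA-DRB1, HLA-DQA1 and HLA-DQB1 began and ended inside the run of members. Within the run of members it went from 0.98 at HLA-DRA to 5.41 in the next row, and from 4.38 at HLA-DQB1 to 1.22 in the next. Among the 20 features within 10 rows on either side of the run, 6 were called (30%), against 18.4% of all features. Most of these 6 lay after the run, where the highest ratio was 0.97, close to that of HLA-DRA. Among the 80 features within 40 rows, 8 were called (10%). None of these 80 had a coefficient of variation of CPM above 0.311 or a gap above 0.20 log2. The coefficients of the 4 chain genes were 1.47 (HLA-DRB5), 0.836 (HLA-DRB1), 0.739 (HLA-DQB1) and 0.63 (HLA-DQA1). The row before the run, ENSG00000204301.6, had a ratio of -1.48, and the row after it, ENSG00000241106.8, had 0.34.

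**Figure D2:**
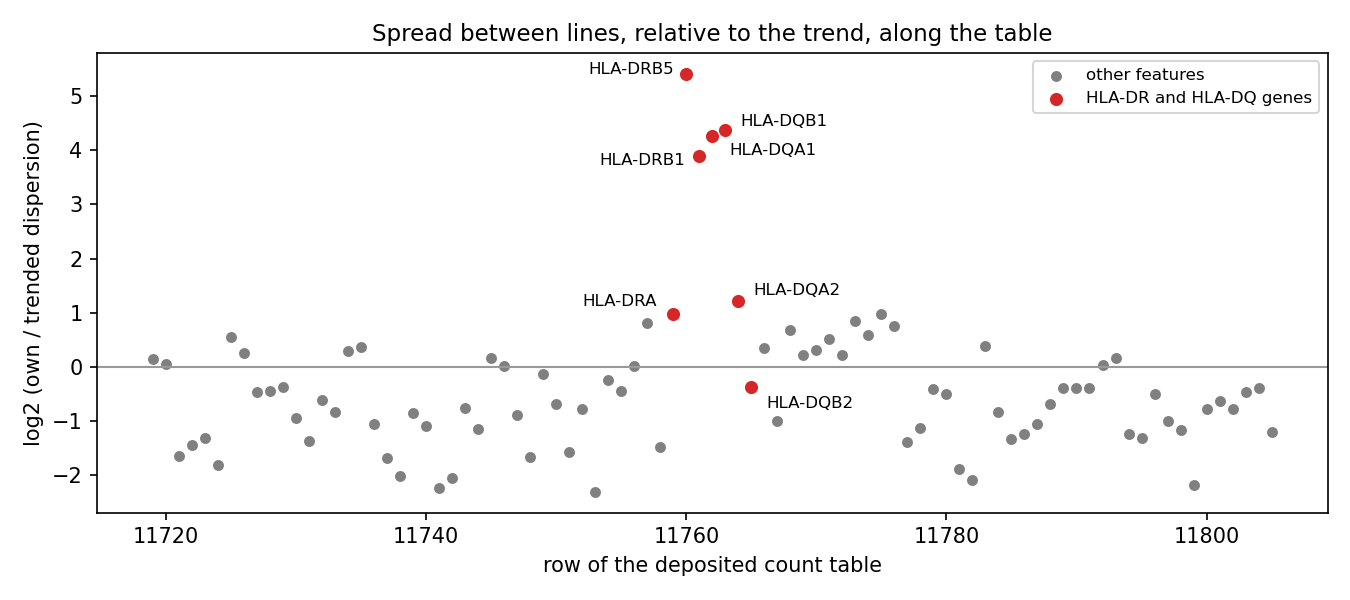
Log2 ratio of own to trended dispersion (vertical axis) for features in the rows of the count table from 40 before to 40 after the members (horizontal axis); red points are the 7 members and grey points the other features. HLA-DRB5, HLA-DRB1, HLA-DQA1 and HLA-DQB1 stand at 3.89 to 5.41, and no grey point is above 0.97.

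Levels of the DQ chain genes rose and fell together across lines. Correlations were taken on log2 CPM with library total and dynamic range removed, and are descriptions with no p-value, since the genes were chosen with their spread known and share libraries, depth and possibly reads. HLA-DQA1 and HLA-DQB1 had r = 0.892 (Pearson) and rho = 0.844 (Spearman; n = 93), and r was 0.887 once the 2 lines most distant from the median of HLA-DQA1 were omitted. It was 0.885 among the 46 libraries with smaller totals and 0.901 among the 47 with larger totals. This r was higher than that of 98.1% of 13847 pairs of adjacent rows in the table, whose median was 0.265. On either side of the widest gap of HLA-DQA1, r was 0.678 (rho = 0.692) in the 73 lines above and 0.466 (rho = 0.472) in the 20 below. This split was made on HLA-DQA1 itself and narrows its range on each side. A lower coefficient can follow from that alone, so nothing is read from the drop. The log2 ratio of HLA-DQB1 to HLA-DQA1 still had an SD of 0.65 between lines and ran from -2.91 to -0.07. The measured levels of the 2 genes were thus not in a fixed proportion. That spread also holds counting error, with HLA-DQB1 counts as low as 3, and any unequal placement of reads from different alleles. The size of these parts was not tested.

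HLA-DRB1 and HLA-DRB5 were compared within each set of HLA-DRB5 lines, because a single coefficient over separate sets would mainly record the sets. In the 25 lines above the gap r was 0.897 and rho 0.894 (r = 0.881 without 2 lines). In the 68 lines below it r was 0.249 and rho 0.275 (r = 0.273 without 2 lines), where HLA-DRB5 had at most 61 counts. That value moved with the covariates, to 0.0367 with none removed and 0.429 with 10 principal components removed. The level of HLA-DRB5 thus followed that of HLA-DRB1 closely across the 25 lines above the gap. Only their promoter windows were compared in sequence, and the part of reads shared by the 2 genes in that relation was not tested. The difference between the coefficients was not tested either.

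**Figure D3:**
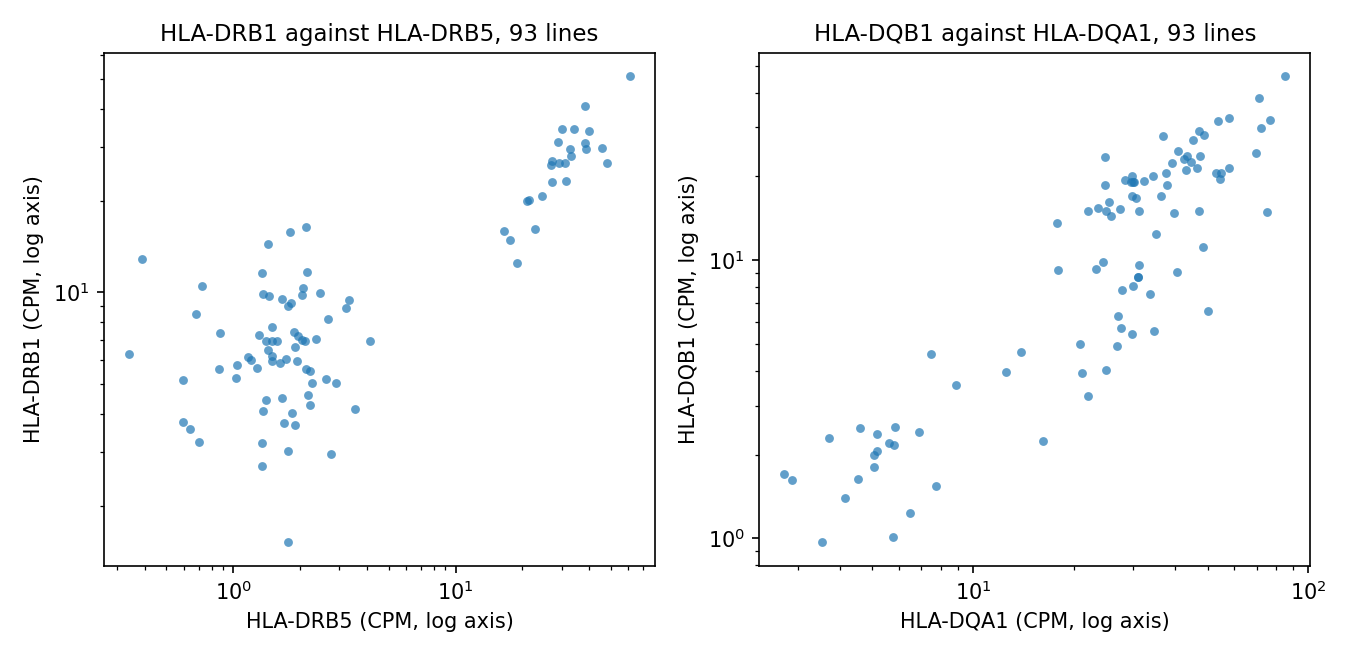
Left, HLA-DRB1 against HLA-DRB5; right, HLA-DQB1 against HLA-DQA1; both axes are CPM on a log scale and each point is 1 of 93 lines. On the left the lines form 2 clouds, 68 at up to 4.12 CPM of HLA-DRB5 and 25 from 16.5 CPM upward; on the right the lines form a band, with 20 lines at or under 8.87 CPM of HLA-DQA1.

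Across the DR and DQ loci the relation was weaker. HLA-DRB1 had r = 0.527 with HLA-DQA1 (rho = 0.544; 0.498 without 2 lines) and r = 0.583 with HLA-DQB1 (rho = 0.578; 0.557 without 2 lines). Within the shallower and the deeper libraries these were 0.625 and 0.425 for HLA-DQA1, and 0.671 and 0.480 for HLA-DQB1. With 10 principal components removed they were 0.428 for HLA-DQA1 and 0.498 for HLA-DQB1. All these coefficients of HLA-DRB1 were taken over both sets of HLA-DRB5 lines together. HLA-DRB1 was mostly higher above the HLA-DRB5 gap, where no line was at or under 8.87 CPM of HLA-DQA1. The coefficients therefore hold the difference between the sets as well as any relation within them. Values of HLA-DRB1 with the DQ genes within each set were not taken. HLA-DRA followed its neighbours less closely, with r = 0.376 to HLA-DRB1 (rho = 0.418; 0.426 without 2 lines; 0.515 for smaller and 0.220 for larger totals). That r was 0.225 with no covariate removed, 0.220 with 10 principal components removed and 0.287 on the deposited scores. The r of HLA-DRA was 0.288 with HLA-DQA1 (rho = 0.409; 0.316 without 2 lines) and 0.287 with HLA-DQB1 (rho = 0.333; 0.302 without 2 lines). In the shallower libraries these last 2 values were 0.525 and 0.476, in the deeper ones 0.044 and 0.068, and with 10 principal components removed 0.056 and 0.060. The difference between depth classes was not tested. In the 25 lines above the HLA-DRB5 gap, HLA-DRB5 had r = 0.439 with HLA-DQB1 (rho = 0.350) and 0.307 with HLA-DQA1 (rho = 0.295), and without 2 lines these were 0.250 and 0.124. On the deposited scores they were 0.731 and 0.557, with no covariate removed 0.659 and 0.606, and with 10 principal components removed 0.505 and 0.216, so their size was not settled in these 25 lines.

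HLA-DQA2 and HLA-DQB2 had weak or negative correlations with the genes they resemble. HLA-DQA2 had r = -0.239 with HLA-DQA1 (rho = -0.262; -0.200 without 2 lines), at -0.110 for smaller and -0.414 for larger totals. HLA-DQB2 had r = -0.023 with HLA-DQB1 (rho = -0.065; -0.042 without 2 lines) and changed sign between the shallower (0.268) and deeper (-0.407) libraries. The relatives had r = 0.061 with each other (rho = 0.055; 0.018 without 2 lines). With so few counts, weak values of this kind do not show that the genes are unrelated. HLA-DRA and HLA-DQB2 had r = 0.046 (rho = 0.054; 0.085 without 2 lines) with dynamic range removed and -0.296 with no covariate removed; the 2 genes moved with that library property in opposite directions.

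**Figure D4:**
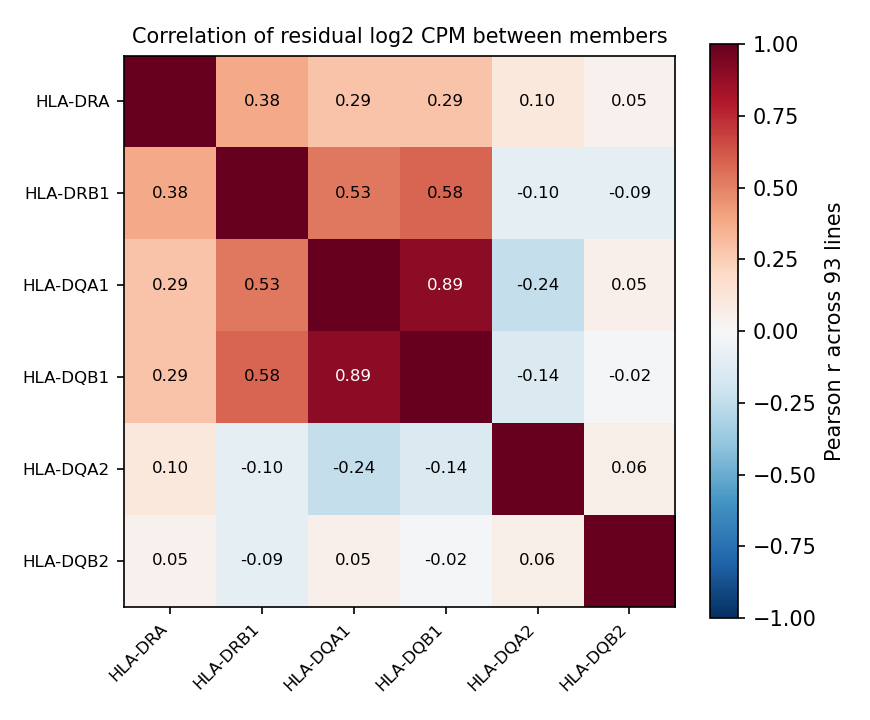
Pearson correlation across 93 lines of residual log2 CPM between 6 of the genes, with values printed in the cells and colour from -1 (blue) to 1 (red); HLA-DRB5 is left out because its lines form 2 sets. HLA-DQA1 and HLA-DQB1 have the highest value (0.89), and HLA-DRB1 has 0.53 and 0.58 with them. The HLA-DRB1 values pool both sets of HLA-DRB5 lines. The highest value for HLA-DQA2 or HLA-DQB2 is 0.10.

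Likeness to the other 13908 features was measured by Spearman's rho on the same values; it was not taken for HLA-DRB5, whose lines form 2 sets. HLA-DQA1 and HLA-DQB1 were each more like the other (0.844) than like any feature outside the members, where the highest were 0.518 for HLA-DQA1 and 0.447 for HLA-DQB1. The feature most like HLA-DRB1 outside the members reached 0.452, below its 0.578 with HLA-DQB1, both over all lines without regard to the HLA-DRB5 sets. HLA-DRA showed the opposite order. ENSG00000166710.20 (rho = 0.782) and ENSG00000196684.12 (rho = 0.770), in rows 4522 and 7009, were far more like it than any member (0.418 with HLA-DRB1), and 1% of all other features had a rho above 0.639. For HLA-DQA2 and HLA-DQB2 the highest were 0.356 and 0.398, and none of these closest features lay in the 40 rows on either side of the run. The highest of 13908 values is large by its choice alone, so these are a description of order only.

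The features that flank the run were compared in the same way. With the row before, ENSG00000204301.6, r ran from -0.115 for HLA-DQA1 to 0.187 for HLA-DQB2 over the 6 genes other than HLA-DRB5. With the row after, ENSG00000241106.8, it was 0.415 for HLA-DRA (rho = 0.380), 0.266 for HLA-DRB1 (rho = 0.221), 0.211 for HLA-DQA1 (rho = 0.293) and 0.228 for HLA-DQB1 (rho = 0.247). HLA-DQA2 and HLA-DQB2 had -0.156 (rho = -0.175) and 0.178 (rho = 0.115) with it. Its value for HLA-DRA was above those of HLA-DRA with HLA-DRB1 (0.376), HLA-DQA1 (0.288) and HLA-DQB1 (0.287), and the differences were not tested.

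The authors' deposited scores, which are normal scores of the same features, kept the sets of HLA-DRB5. The widest gap of its scores, from 0.191 to 0.810, again left 68 lines below and 25 above, and the same 25 lines were above. Per gene, the Spearman correlation of score and log2 CPM across lines was 0.920 for HLA-DRB5 and 0.967 to 0.983 for the other 6. On the scores r was 0.890 between HLA-DQA1 and HLA-DQB1, and 0.906 between HLA-DRB1 and HLA-DRB5 in the 25 lines. The scores put the lowest HLA-DRB5 line at -1.80 and the lowest HLA-DRA line at -2.96.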

How the data were processed

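H3K36me3 CUT&Tag was analysed in 93 lymphoblastoid lines, with 1 library per line, from 100000 frozen cells and 14 PCR cycles per the labels' protocols. The deposited table holds whole-number read counts per feature, not normalized; HISAT2 2.2.1, bedtools and hg38 are named, with no role or order, per the submitters' processing notes, and the sources used here state neither the counted interval nor the treatment of reads that fit several places. A second deposited table holds a normal score per feature and line, and the sources do not say how the authors made it. 0 columns of per-sample values were left unmapped.

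The members and lists were chosen with earlier results of these data known. Counts were scaled with TMM in edgeR 4.0.16 (R 4.3.3), with a prior count of 2 on the log2 scale. Dispersion was fitted on the 13915 features that reached 10 counts in 47 or more libraries, with log2 total and dynamic range as covariates, own dispersion without shrinkage, and the deviance goodness-of-fit test at the trended dispersion with Benjamini-Hochberg adjustment over all of them. All 7 members passed this filter. Correlations used residuals of the same covariates in Python 3.11.15 (scipy 1.17.1), and promoter windows were aligned with Biopython 1.88. Reads after PCR are not independent molecules, so counting error is a lower limit. Methods were tested on simulated data. Named genes were the 7 members, the closest features by rho (not for HLA-DRB5; 2 are named, since identifiers could not be paired with symbols) and the flanking rows. Alternatives were DESeq2 1.42.0 size factors and dispersions, no filter, other covariates, a prior count of 0.5, fewer libraries, depth classes and the deposited scores.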

Additional observations from a re-analysis of the deposited data

How the results depend on the processing

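The log2 dispersion ratio ran over 6 alternatives from 4.90 to 5.93 for HLA-DRB5, 3.72 to 4.98 for HLA-DQB1, 3.57 to 4.96 for HLA-DQA1 and 3.31 to 4.25 for HLA-DRB1; for HLA-DQB2, called under none, it ran from -0.60 to 0.23. Median levels moved by less than 1 SD between lines in all 35 alternatives. The HLA-DRB5 gap was 1.96 log2 with DESeq2 size factors and 1.99 with a prior count of 0.5, with the same lines above it. With fewer libraries or within a depth class it was 2.15 to 2.26 log2. Leaving lines out can only keep or widen a gap that still has at least 6 lines on each side, as this one had. These last values therefore say nothing about its stability. Of 27 correlations, 9 changed sign under at least 1 of 8 alternatives fixed in the design, each of them at most 0.143 in size in the main analysis. The correlation of HLA-DQA1 and HLA-DQB1 ran from 0.866 to 0.901 and that of HLA-DRB1 and HLA-DRB5 above the gap from 0.860 to 0.944, and below it from 0.037 to 0.429. The gap measure, its alternatives, the values within each set of lines and the levels per kilobase were chosen after the data were seen. No paired analysis was possible because all libraries form 1 group. Counting limits HLA-DRB5 below its gap, HLA-DQA2 and HLA-DQB2, which had under 10 counts in 14, 6 and 2 lines. The count of members called more variable than the trend was 6 under each alternative of size factors, filter, covariates and left-out libraries, and 4 by DESeq2's dispersion outliers (over all features, 18.4% and 1.83% were called); the spread chose these genes, so that count says nothing about stability.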
